A study of Mus musculus with 12 samples.

Results

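The retinoic acid genes described here are 9 genes that take up retinol, make, bind or break down retinoic acid, sense it or are switched on by it: *Stra6*, *Crabp1*, *Crabp2*, *Aldh1a2*, *Dhrs3*, *Cyp26a1*, *Rarb*, *Rarg* and *Stra8*. They were chosen by name for their place in the pathway, with earlier results of these data known, and are 9 of the 46517 genes in the count tables. All 9 exceeded 1 CPM, the read count of a gene relative to the TMM-scaled total of its library, in at least 1 sample and were among the 15673 genes tested. Polyadenylated RNA was sequenced from WT mouse embryonic stem cells (ESCs) of the C57BL/6 *Eomes*-EGFP reporter line and from *Meteor* KO cells of the same line, in which the transcribed enhancer *Meteor*, upstream of *Eomes*, was deleted with a CRISPR-Cas9 nickase. Day 0 samples were undifferentiated ESCs, grown on mouse embryonic fibroblast feeders, and day 3 samples were embryoid bodies formed in hanging drops in cardiac differentiation medium with serum, to which the sources name no added retinoic acid. Each of the 4 groups had 3 libraries. KO cells were grown from picked clones, and the number of clones behind the 3 KO libraries is not given in the sources used here.

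Cells take up retinol, oxidise it first to retinaldehyde and then to retinoic acid, and retinoic acid enters the nucleus, where receptors of the RAR family, paired with RXR partners, bind DNA and switch target genes on. The level of retinoic acid is held by feedback, because enzymes that remove it or its precursor are themselves targets. In the early embryo the mesoderm makes retinoic acid, and tissues that must stay free of it, among them the early primitive streak, break it down.

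RAR and RXR bind pairs of 6-base half-sites in direct repeat, and a pair separated by 5 bases (DR5) is the classical retinoic acid response element. RefSeq windows of 300 bases around the start site (GRCm38.p6, 250 bases before it and 50 after) were searched on both strands for a pair of half-sites in the same direction with a spacer of 5 bases. The half-site was AGGTCA, and accepted forms of it were AGTTCA as well as GGGTCA and also GGTTCA. Windows were at hand for 8 of the 9 genes, 14 windows in all, with none for *Crabp2*. The matches in *Rarb* and *Cyp26a1* are shown because these are the response elements a reader would look for beside the levels of both genes. Each is printed 5′ to 3′ on the strand of its gene, with the half-sites in capitals.
*Rarb*, chr14:16575507-16575535, minus strand: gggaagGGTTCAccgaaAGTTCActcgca
*Cyp26a1*, chr19:37697770-37697798, plus strand: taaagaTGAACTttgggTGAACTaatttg
The *Rarb* match lies on the strand of the gene and begins 53 bases upstream of a start site inside the annotated gene. The *Cyp26a1* match begins 32 bases upstream of the start and reads on the opposite strand, where its sequence is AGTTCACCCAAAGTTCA. Such a DR5 match occurred in 32 of the 32851 windows of all genes, or 0.0974%. With a 2-base spacer (DR2) included, 120 windows had a match (0.365%), the same 2 windows among the 14 of these genes, and 0 of 47 windows of the other pathway genes described below. A match is a string of letters and shows no binding, and the 300-base windows leave out more distant elements.

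Between 17455927 and 23910943 reads per library were counted on genes (median 19651103.5), so 1 CPM is close to 20 reads and the lowest values below rest on few reads. ENSMUSG00000103968, annotated at the *Meteor* locus, had 3.87 CPM in WT day 0 cells and 3.1 in WT day 3 cells, and no reads in any KO library. *Platr11*, from the same locus, fell from 3.67 to 0.04 CPM in KO day 0 cells. *Eomes* itself stood at 51.34 CPM in WT and 55.82 in KO at day 0, and at 403.81 and 109.2 CPM at day 3. *Upf3b*, a gene of nonsense-mediated decay on another chromosome, was at 52.01 CPM in WT and 0.47 in KO cells at day 0 and at 51.12 and 0.01 at day 3, so KO and WT cells also differed at a gene away from the enhancer. Summed CPM of 7 mesendoderm and primitive streak markers ranged from 869.6 to 1757 in WT day 3 libraries and from 75.79 to 150.2 in KO day 3 libraries. All 7 were lower in KO by edgeR, as were 16.7% of all tested genes at day 3. Replicate 3 of the WT day 3 group stood apart, with the highest sum of 8 visceral endoderm markers (244.8 CPM against 27.8 and 43.76 in the other two), of 10 feeder fibroblast markers (117.3 against 52.98 and 54.44) and the lowest mesendoderm sum (869.6). Its feeder excess was largely *Fbn1* (60.64 CPM against 15.95 and 18.92), and *Col3a1*, *Dcn*, *Lum* and *Loxl1* were not highest in it. Replicate 3 of the WT day 0 group had the highest mesendoderm sum of the 6 day 0 libraries, 164.6 CPM against 41.49 to 71.37.

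**Figure D1:**
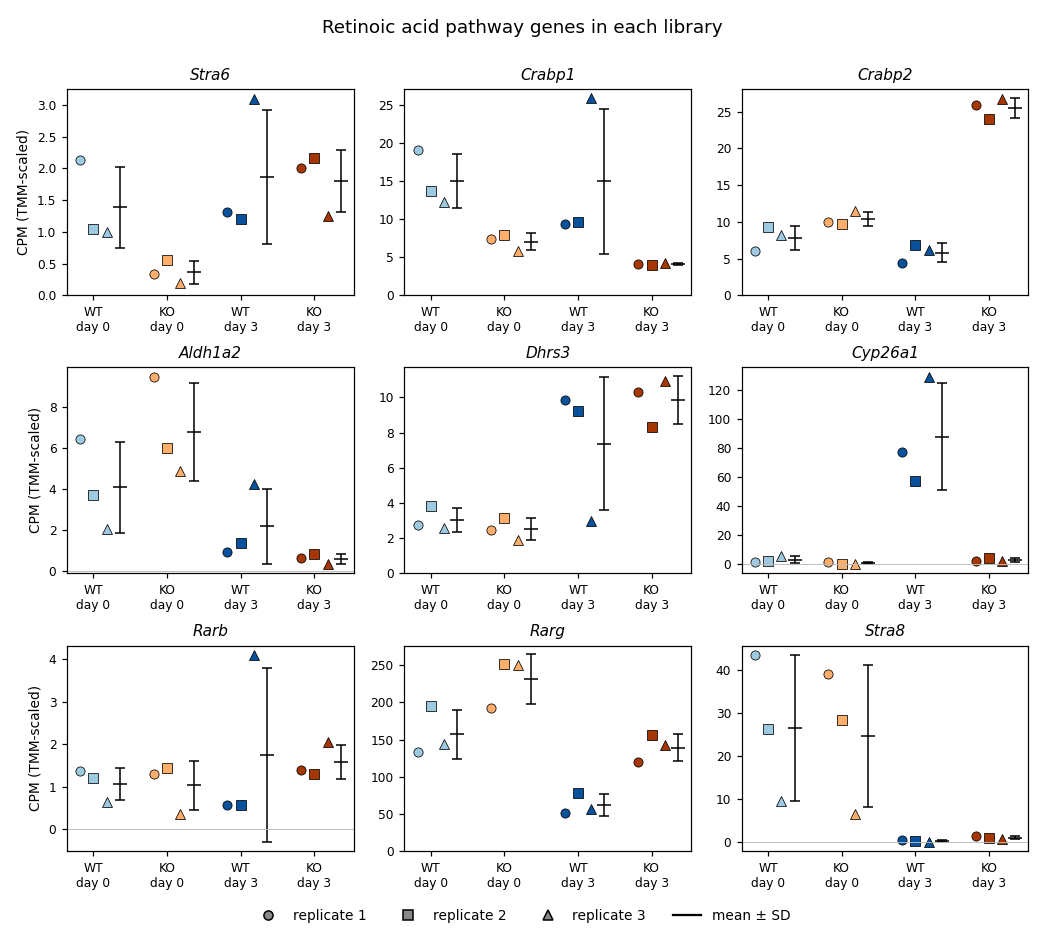
CPM (vertical axis, linear, scaled by TMM) of the 9 genes in each of the 12 libraries, by group (horizontal axis), with points for the libraries and bars for the mean ± SD of 3. Cyp26a1 lies between 57.33 and 128.80 CPM in WT at day 3 and at or below 5.50 CPM elsewhere, and Crabp2 is at 24.05 to 26.72 CPM in KO at day 3 against at most 11.44 CPM in the other groups.

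KO was compared with WT at each day, day 3 with day 0 in each genotype, and the KO effect at day 3 with that at day 0, all in 1 edgeR fit over the 12 libraries with the replicate number as a block. A gene was called when its p-value, after Benjamini-Hochberg adjustment across the 15673 tested genes, was below 0.05. In undifferentiated cells 3 of the 9 genes were called between KO and WT, with *Rarg* higher and *Cyp26a1* and *Stra6* lower, where 20.4% of all tested genes were called, 9.56% higher and 10.9% lower. At day 3, 5 of the 9 were called, with *Rarg*, *Crabp2* and *Stra8* higher in KO and *Cyp26a1* and *Crabp1* lower, against 30.9% of all tested genes, 14.3% higher and 16.7% lower. The median log2 fold change of the 9 was -0.17 at day 0 and 0 at day 3, against -0.01 and 0 over all tested genes, so the 9 did not shift together in one direction. The libraries are bulk RNA, in which fewer cells of a type and less RNA per cell cannot be told apart. No source says whether the 3 libraries of a group came from separate cultures, and the p-values measure the spread between these libraries only.

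**Figure D2:**
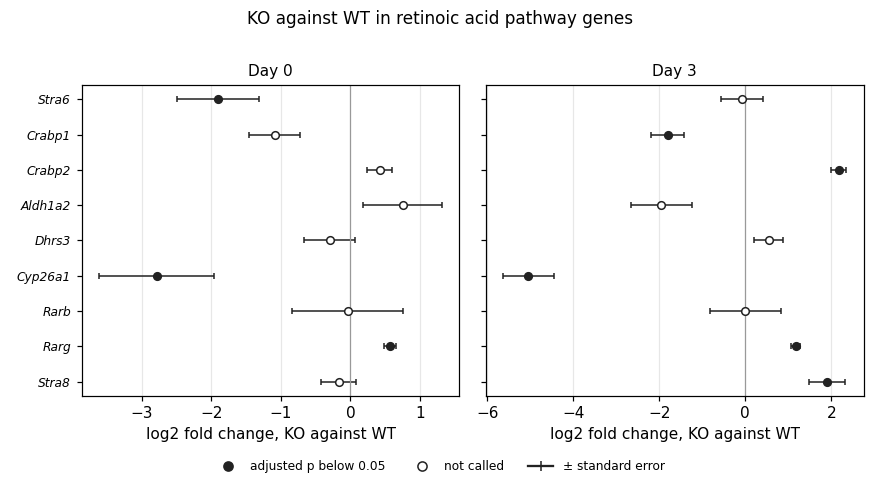
Log2 fold change of KO against WT (horizontal axis) for the 9 genes (vertical axis) at day 0 and day 3, with bars for the standard error and filled points for genes called at an adjusted p below 0.05 by edgeR. Cyp26a1 is farthest to the left at both days, at -2.79 and -5.05, and Crabp2 is farthest to the right at day 3, at 2.17.

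*Cyp26a1*, on chromosome 19, encodes the cytochrome P450 enzyme that oxidises retinoic acid and is one of its best known targets. It stood at 1.31, 1.83 and 5.50 CPM in the 3 WT day 0 libraries and at 1.01, 0.06 and 0.10 CPM in the KO day 0 libraries, the latter from 18, 1 and 2 reads. At day 3 it reached 76.72, 57.33 and 128.80 CPM in WT, and 1.55, 3.87 and 2.21 CPM in KO. Every WT library was above every KO library at both days, and the 3 WT day 3 libraries were apart from all the others, while the KO day 3 values were in the range of undifferentiated WT cells. From day 0 to day 3 *Cyp26a1* rose in WT by a log2 fold change of 4.98 (standard error, SE, 0.58, adjusted p = 8.74e-05), a 31.5-fold increase, and by 5.65 without WT day 0 replicate 3. In KO it rose by 2.72 (SE 0.83, adjusted p = 0.0178), from a base of few reads.

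The KO level of *Cyp26a1* was 33-fold below WT at day 3 (2.54 ± 1.19 against 87.62 ± 36.96 CPM, SD, n = 3), or -5.05 on the log2 scale (SE 0.59, adjusted p = 0.000337 in edgeR). Leaving out any 1 of the 6 day 3 libraries kept this between -5.79 (without KO replicate 2) and -4.58. At day 0 the log2 fold change was -2.79 (SE 0.83, adjusted p = 0.039), from 2.88 ± 2.28 CPM in WT to 0.39 ± 0.54 in KO. This call at day 0 was lost without WT replicate 2 (-2.95, adjusted p = 0.0635), without WT replicate 3 (-2.13, adjusted p = 0.171), without KO replicate 2 (-2.33, adjusted p = 0.132) and without KO replicate 3 (-1.99, adjusted p = 0.179), while without KO replicate 1 the value was -5.20. The rise within KO was 5.14 without KO day 0 replicate 1, and it was no longer called without KO day 0 replicate 2 (2.24, adjusted p = 0.0703), KO day 0 replicate 3 (1.95, adjusted p = 0.0897) or KO day 3 replicate 2 (2.01, adjusted p = 0.06). The KO effect did not pass the test for a difference between the days (interaction -2.26, SE 1.16, adjusted p = 0.218). The WT day 0 library with the highest *Cyp26a1* was replicate 3, the one with the highest mesendoderm sum, and the KO day 3 libraries were low in both *Cyp26a1* and mesendoderm markers. Within WT day 3, replicate 3 had the highest *Cyp26a1* (128.80 CPM) but the lowest mesendoderm sum (869.6 CPM). Replicate 1 was above replicate 2 in both, with *Cyp26a1* at 76.72 and 57.33 CPM and sums of 1757 and 1575 CPM. The part of mesendoderm cells in the result was not tested.

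*Aldh1a2*, on chromosome 9, encodes the retinaldehyde dehydrogenase that makes most retinoic acid in the early embryo. Undifferentiated cells held 6.44, 3.71 and 2.06 CPM in WT and 9.47, 6.01 and 4.85 CPM in KO. At day 3 the WT libraries held 0.89, 1.35 and 4.24 CPM and the KO libraries 0.60, 0.80 and 0.33 CPM. The groups overlapped at day 0, although KO was above WT in each same-numbered pair. The day 0 difference of 0.75 on the log2 scale was not called by edgeR (SE 0.57, adjusted p = 0.398). It was called in 1 of 16 alternative fits. At day 3 every KO library was below every WT library. *Aldh1a2* fell from day 0 to day 3 in KO, by 3.55 on the log2 scale (SE 0.68, adjusted p = 0.0014), to a level 11.7-fold lower.

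In WT the change of *Aldh1a2* over the same days was -0.83 (SE 0.62, adjusted p = 0.277), and this rested on replicate 3 of day 3, since without it the value was -2.09 (adjusted p = 0.00164). KO against WT at day 3 gave -1.96 (SE 0.71, adjusted p = 0.0585), just short of the threshold. It was -0.69 (adjusted p = 0.275) without WT day 3 replicate 3, and it was called at -2.61 (adjusted p = 0.0116) without WT day 3 replicate 1, at -1.92 (adjusted p = 0.0417) with no replicate block and at -1.77 (adjusted p = 0.0201) with a block within each day. The difference of the KO effect between the days was -2.71 (SE 0.91, adjusted p = 0.0712), and was called with a block within each day (-2.58, adjusted p = 0.0152). The high WT library is the one with the raised visceral endoderm sum and a feeder sum raised largely by *Fbn1*. The part of such cells in its *Aldh1a2* level was not tested.

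*Dhrs3*, on chromosome 4, encodes a short-chain reductase that turns retinaldehyde back into retinol and so lowers the supply for synthesis. WT libraries held 2.73, 3.81 and 2.59 CPM at day 0 and 9.84, 9.24 and 3.00 CPM at day 3, and KO libraries held 2.47, 3.14 and 1.89 CPM and then 10.30, 8.30 and 10.95 CPM. All KO day 3 libraries were above all KO day 0 libraries, whereas WT day 3 replicate 3 stayed in the day 0 range. *Dhrs3* rose over the 3 days in KO by 2.04 (SE 0.36, adjusted p = 0.000855) and in WT by 1.20 (SE 0.35, adjusted p = 0.0154). The WT rise was no longer called without WT day 0 replicate 1 (1.03, adjusted p = 0.0674), WT day 3 replicate 1 (0.89, adjusted p = 0.0715) or WT day 3 replicate 2 (1.05, adjusted p = 0.0652), and it was 1.56 without WT day 3 replicate 3. KO and WT were not called different at either day, at -0.30 (SE 0.37, adjusted p = 0.622) and 0.54 (SE 0.34, adjusted p = 0.254).

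*Crabp1* and *Crabp2*, on chromosomes 9 and 3, encode the cytoplasmic retinoic acid binding proteins; the second is known to carry retinoic acid to its nuclear receptors, and the first to hold it in the cytoplasm. *Crabp2* stood at 6.01, 9.29 and 8.19 CPM in WT and 9.92, 9.65 and 11.44 CPM in KO at day 0, and at 4.34, 6.84 and 6.14 CPM in WT and 25.85, 24.05 and 26.72 CPM in KO at day 3. The KO day 3 group lay far above the other three, with an SD of 1.36 around its mean of 25.54 CPM. KO exceeded WT 4.49-fold at day 3, a log2 fold change of 2.17 (SE 0.18, adjusted p = 7.08e-05), which stayed between 2.03 and 2.29 with any 1 library left out.

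Within KO *Crabp2* rose by 1.31 over the 3 days (SE 0.17, adjusted p = 0.000137), whereas its change in WT was -0.44 (SE 0.18, adjusted p = 0.058). That WT value was called without WT day 0 replicate 1 (-0.55, adjusted p = 0.0406) and without WT day 3 replicate 2 (-0.57, adjusted p = 0.047). At day 0 the KO libraries were also all above the WT libraries, but the difference of 0.42 did not pass the test (SE 0.18, adjusted p = 0.127). The KO effect was larger at day 3 than at day 0 by 1.75 (SE 0.25, adjusted p = 0.00228), and between 1.60 and 1.88 with any 1 library left out.

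*Crabp1* went the other way from *Crabp2* in KO cells. Its WT libraries held 19.06, 13.67 and 12.26 CPM at day 0 and 9.33, 9.63 and 25.91 CPM at day 3, against 7.40, 7.88 and 5.77 CPM and 4.15, 3.92 and 4.25 CPM in KO. KO lay below WT in every library at both days, although WT replicate 3 of day 3 stood well above the other two. The log2 fold change at day 3 was -1.81 (SE 0.38, adjusted p = 0.006), and without that library it was -1.08 (adjusted p = 0.00659). At day 0 it was -1.09 (SE 0.37, adjusted p = 0.0615), which passed with no replicate block (-1.10, adjusted p = 0.0498) and with a block within each day (-1.08, adjusted p = 0.00919).

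Over the 3 days *Crabp1* was not called in WT (-0.07, SE 0.36, adjusted p = 0.889) or in KO (-0.79, SE 0.38, adjusted p = 0.0989), although the KO value was called with a block within each day (-0.77, adjusted p = 0.0303). Without WT day 3 replicate 3 the WT value was -0.77 and was called (adjusted p = 0.0123). The KO effect on *Crabp1* did not pass the test for a difference between the days (-0.72, SE 0.52, adjusted p = 0.385), and was 0 without that library.

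*Stra6*, on chromosome 9, encodes the membrane receptor that takes up retinol from its carrier in serum. It was low everywhere, at 2.13, 1.04 and 1.00 CPM in WT and 0.34, 0.55 and 0.20 CPM in KO at day 0, the KO values from 6, 10 and 4 reads, and at 1.31, 1.20 and 3.10 CPM in WT and 2.00, 2.16 and 1.25 CPM in KO at day 3. At day 0 the groups did not overlap and at day 3 they did. The day 0 log2 fold change was -1.90 (SE 0.59, adjusted p = 0.0446) and the call was lost on leaving out any of the 6 libraries in turn. The values then ran from -2.42 without KO replicate 2 to -1.42 without WT replicate 1, with adjusted p-values from 0.0556 to 0.163.

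At day 3 KO and WT differed in *Stra6* by -0.08 (SE 0.49, adjusted p = 0.924). *Stra6* rose in KO from day 0 to day 3 by 2.28 (SE 0.57, adjusted p = 0.00653), and its change in WT was 0.46 (SE 0.50, adjusted p = 0.458). The difference of the KO effect between the days was 1.83 (SE 0.76, adjusted p = 0.134), and it was called at 2.68 (adjusted p = 0.012) without WT day 3 replicate 3, the library with the highest *Stra6*.

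*Rarg*, on chromosome 15, encodes retinoic acid receptor gamma and was the most abundant of the 9 genes in undifferentiated WT cells per length, at 36.9 CPM per kb of exon, ahead of *Crabp1* at 18.7 and *Stra8* at 14.7. At day 0 it stood at 132.96, 194.72 and 144.15 CPM in WT and 192.44, 251.61 and 250.93 CPM in KO, and at day 3 at 52.00, 78.85 and 56.45 CPM in WT and 119.63, 155.98 and 142.28 CPM in KO. The highest WT day 0 library was just above the lowest KO library, yet in each pair of the same replicate number KO was above WT, and at day 3 the groups were apart. KO exceeded WT 1.48-fold at day 0 (log2 fold change 0.57, SE 0.09, adjusted p = 0.00298) and 2.25-fold at day 3 (1.17, SE 0.10, adjusted p = 6.81e-05). With no replicate block the day 0 value was 0.56 and missed the threshold (adjusted p = 0.0572).

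*Rarg* fell over the 3 days in both genotypes, by 1.34 in WT (SE 0.10, adjusted p = 5.53e-06) and by 0.73 in KO (SE 0.09, adjusted p = 0.000115), all on the log2 scale. KO day 3 cells thus held about as much *Rarg* as undifferentiated WT cells, 139.3 ± 18.36 against 157.28 ± 32.91 CPM, with overlapping libraries. The KO effect was larger at day 3 by 0.60 (SE 0.13, adjusted p = 0.0149), a call that was absent with no replicate block (adjusted p = 0.158).

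*Rarb*, on chromosome 14, encodes retinoic acid receptor beta, whose promoter holds the DR5 match printed above. WT libraries held 1.37, 1.20 and 0.63 CPM at day 0 and 0.56, 0.58 and 4.10 CPM at day 3, and KO libraries held 1.29, 1.43 and 0.36 CPM and then 1.40, 1.31 and 2.04 CPM. All groups overlapped, and the single high value was again WT day 3 replicate 3. No comparison was called, with KO against WT at -0.04 (SE 0.80, adjusted p = 0.981) at day 0 and 0 (SE 0.82, adjusted p = 0.998) at day 3. Without that high library the day 3 value was 1.73 (adjusted p = 0.0564). Of the exon bases of *Rarb*, 34.1% overlap *Top2b* on the opposite strand, and the strand setting of the counting is not given in the sources used here, so part of these reads may not be from *Rarb*.

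*Stra8*, on chromosome 6, is named for its stimulation by retinoic acid and is needed for entry into meiosis in germ cells. It was well expressed in undifferentiated cells, at 43.52, 26.41 and 9.67 CPM in WT and 39.00, 28.50 and 6.59 CPM in KO. By day 3 it had fallen to 0.51, 0.34 and 0.10 CPM in WT (11, 7 and 2 reads) and to 1.40, 0.97 and 0.83 CPM in KO (28, 17 and 20 reads). The genotypes overlapped at day 0, where same-numbered WT and KO libraries lay close together, and at day 3 every KO library was above every WT library. The fall was 81.7-fold in WT (log2 fold change -6.35, SE 0.37, adjusted p = 1.83e-06) and 19.4-fold in KO (-4.28, SE 0.32, adjusted p = 3.57e-06).

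KO exceeded WT in *Stra8* at day 3 by a log2 fold change of 1.90 (SE 0.43, adjusted p = 0.00924), on a level near 1 CPM, while the value at day 0 was -0.17 (SE 0.25, adjusted p = 0.686). Without KO replicate 3 the day 3 value was lowest, at 1.5, and without KO replicate 1 highest, at 2.24. The difference of the KO effect between the days was 2.07 (SE 0.50, adjusted p = 0.0216), and 2.12 with an adjusted p of 0.0541 without WT day 3 replicate 1. With no replicate block neither the day 3 value (1.73, adjusted p = 0.19) nor the difference (1.83, adjusted p = 0.31) passed. The sum of 6 germ cell markers was 235.6, 146.5 and 124.1 CPM in the WT and 192.4, 108.7 and 92.09 CPM in the KO day 0 libraries, and 80.59, 75.96 and 70.12 CPM in WT and 135, 115.1 and 105 CPM in KO at day 3. At day 3 KO was higher in 3 of the 6 markers and lower in 2 by edgeR, against 14.3% and 16.7% of all tested genes. *Sycp3*, a meiotic chromosome protein, made up most of the KO sum (100.03, 73.81 and 64.98 CPM against 49.16, 40.96 and 21.05 CPM in WT), while *Dppa3* and *Tfap2c* stood lower in every KO library than in every WT library. The marker sum and *Stra8* had the same order of libraries in each group of 3. The sum of 6 pluripotency markers, described below, had that order too, except in KO at day 3. Single germ cell markers could depart from it, as *Dazl* did in KO at day 0 (26.73, 29.93 and 21.55 CPM). The part of germ cells in the *Stra8* values was not tested.

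Across the 3 days, 4 of the 9 genes were called in WT, against 56.2% of all tested genes (30.7% higher and 25.5% lower), with *Cyp26a1* and *Dhrs3* higher at day 3 and *Rarg* and *Stra8* lower. In KO 7 of the 9 were called, against 56.6% of all tested genes (29.4% higher and 27.2% lower), with *Cyp26a1*, *Crabp2*, *Stra6* and *Dhrs3* higher and *Aldh1a2*, *Rarg* and *Stra8* lower. Both comparisons also set cells grown on feeders against embryoid bodies, and the summed feeder markers were 93.1 to 422 CPM in day 0 libraries and 45.64 to 117.3 CPM at day 3. For 3 of the 9, *Rarg*, *Crabp2* and *Stra8*, the KO effect differed between the days, against 15.5% of all tested genes, 8.21% with a positive and 7.34% with a negative difference. All 3 were positive, which means a higher KO level relative to WT at day 3 than at day 0. The day 0 and day 3 comparisons of a genotype share libraries with the comparisons between genotypes and are not independent of them.

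Another 48 genes of the pathway were grouped by role, of which 35 could be tested. KO was above WT in 3 and below it in 6 of these at day 0, and above in 3 and below in 13 at day 3. Of all tested genes 9.56% were called higher and 10.9% lower at day 0, and 14.3% and 16.7% at day 3. The median log2 fold change of the 35 was -0.22 at day 0 and -0.47 at day 3, against -0.01 and 0 over all tested genes.

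**Figure D3:**
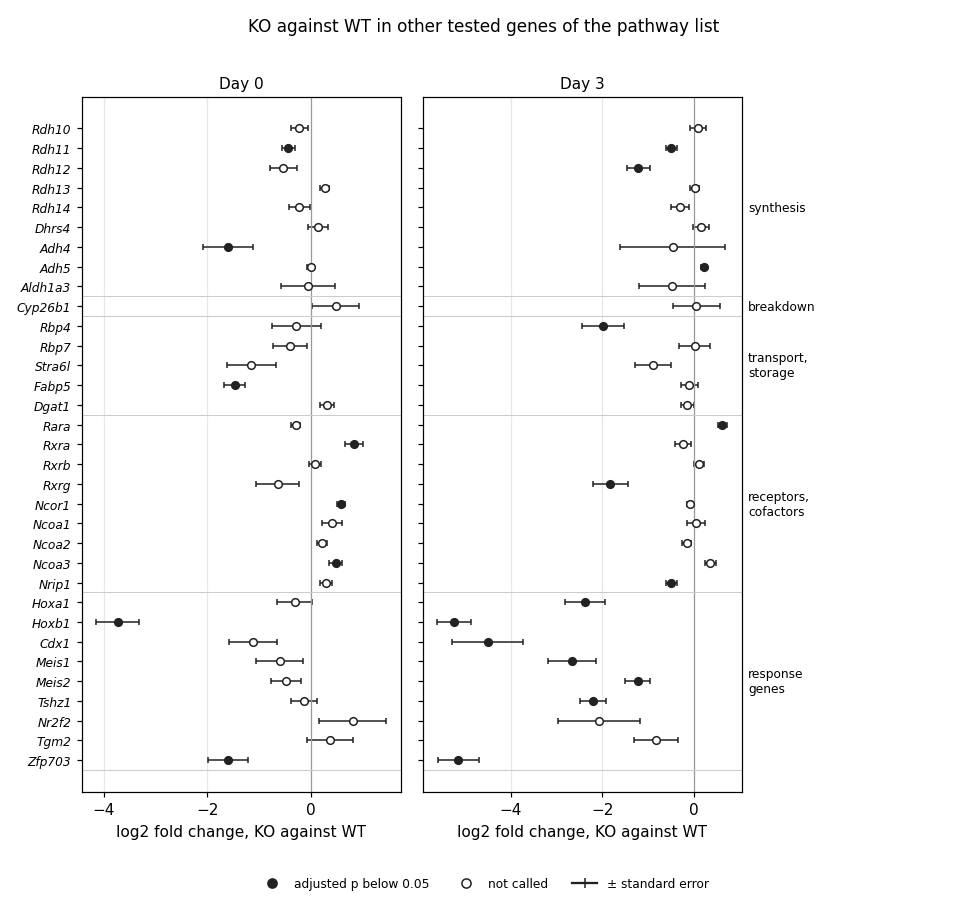
Log2 fold change of KO against WT (horizontal axis) at day 0 and day 3 for 33 of the 35 tested genes of the pathway list (vertical axis), grouped by role, with bars for the standard error and filled points for genes called at an adjusted p below 0.05 by edgeR. At day 3, 7 of the 9 response genes are called and all of these lie to the left of 0, with Hoxb1 at -5.24 and Zfp703 at -5.15.

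The listed other genes that retinoic acid is known to induce had the lowest median among the roles at day 3. This list holds none of the 9 genes described first. Among those, *Crabp2* (2.17), *Stra8* (1.90) and *Rarg* (1.17) were higher in KO at day 3. *Cyp26a1* (-5.05) and *Crabp1* (-1.81) were lower, and the rest, with *Rarb* and *Dhrs3*, were not called. Of the 10 response genes listed, 9 were tested, all but *Nr2f1*, with a median log2 fold change of -2.38 at day 3. KO was lower in 7 of them at day 3, where 16.7% of all tested genes were lower. *Hoxb1*, a homeobox gene of the hindbrain and an established retinoic acid target, was at 6.16 CPM in WT and 0.15 CPM in KO at day 3 (-5.24, SE 0.37, adjusted p = 3.53e-05). *Zfp703*, a zinc finger corepressor gene, fell from 19.94 CPM in WT to 0.54 CPM in KO (-5.15, SE 0.45, adjusted p = 8.78e-05). *Tshz1*, another zinc finger gene, was at 3.38 CPM in WT and 0.70 in KO (-2.20, SE 0.28, adjusted p = 0.000515), and *Cdx1*, a caudal homeobox gene of the posterior embryo, at 1.43 and 0.04 CPM (-4.51, SE 0.78, adjusted p = 0.00224). The *Cdx1* libraries held 1.35, 2.55 and 0.38 CPM in WT and 0.05, 0.0 and 0.08 CPM in KO, so its fold rests on few reads.

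With 1 library left out the *Cdx1* value ranged from -5.54 (KO replicate 3) to -3.74 (KO replicate 2), and all 4 genes stayed called. At day 0, 2 of the 9 response genes were called, both lower in KO (10.9% of all tested genes were lower): *Hoxb1* at -3.73 (SE 0.41, adjusted p = 0.000448; 1.81 CPM in WT and 0.13 in KO) and *Zfp703* at -1.60 (SE 0.38, adjusted p = 0.0148). The *Zfp703* call at day 0 was lost without WT replicate 3 (-1.21, adjusted p = 0.0747) or KO replicate 3 (-1.20, adjusted p = 0.0792). In 4 of the 9 the KO effect was more negative at day 3 than at day 0 by edgeR, as in 7.34% of all tested genes. Several of these genes are also expressed in the primitive streak and mesoderm, whose summed markers were lower in every KO day 3 library than in every WT one, and the part of those cells was not tested.

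Among the genes of transport and storage, 6 of 10 were tested and 2 were lower in KO at each day. Of all tested genes 10.9% were lower at day 0 and 16.7% at day 3. *Fabp5*, a fatty acid binding protein that also binds retinoic acid, was lower at day 0 (29.26 CPM in WT and 10.82 in KO, -1.47, SE 0.20, adjusted p = 0.0011). At day 3 *Fabp5* was not called (68.66 CPM in WT and 64.54 in KO, -0.10, adjusted p = 0.704). Its KO effect differed between the days by edgeR (1.37, SE 0.27, adjusted p = 0.00898). *Rbp4*, the serum retinol carrier, was lower at day 3 (5.83 and 1.47 CPM, -1.98, SE 0.46, adjusted p = 0.00994), but at -1.19 (adjusted p = 0.0277) without WT replicate 3, and it was not called without KO replicate 3 (-1.85, adjusted p = 0.0593).

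All 10 receptors and cofactors were tested. At day 0 KO was higher in 3, where 9.56% of all tested genes were higher. These were *Ncor1* (0.58, adjusted p = 0.00151), a corepressor of unliganded receptors, *Rxra* (0.84, adjusted p = 0.0087), the main RXR partner, and the coactivator *Ncoa3* (0.48, adjusted p = 0.021). The *Ncoa3* call was lost on leaving out either WT replicate 2 or 3 or either KO replicate 2 or 3. At day 3 KO was higher in *Rara*, retinoic acid receptor alpha (40.0 CPM in WT and 61.33 in KO, 0.62, adjusted p = 0.00122). It was lower in *Rxrg* (11.1 and 3.01 CPM, -1.83, adjusted p = 0.00577) and in the cofactor *Nrip1* (-0.50, adjusted p = 0.0125), whose call was lost without KO replicate 2. *Rara* was not called at day 0 (-0.29), nor *Rxra* at day 3 (-0.24). By edgeR the KO effect differed between the days in *Rara* (0.92, adjusted p = 0.00253) and *Rxra* (-1.07, adjusted p = 0.017). It also did in *Ncor1* (-0.66, adjusted p = 0.00575) and *Nrip1* (-0.79, adjusted p = 0.0139), where 15.5% of all tested genes differed.

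Of 16 listed enzymes of synthesis 9 were tested, and 4 were called at a day. Of all tested genes 20.4% were called at day 0 and 30.9% at day 3. KO was lower in *Rdh11*, a retinol dehydrogenase, at day 0 (-0.43, adjusted p = 0.0339) and day 3 (-0.50, adjusted p = 0.0115), in the alcohol dehydrogenase gene *Adh4* at day 0 (-1.60, adjusted p = 0.0444) and in *Rdh12* at day 3 (-1.22, adjusted p = 0.00572), and higher in *Adh5* at day 3 (0.22, adjusted p = 0.0357). The day 0 calls of *Rdh11* and *Adh4* were each lost on leaving out 5 of the 6 libraries in turn, and the *Adh5* call on leaving out any of the 6. *Rdh10*, which makes most retinaldehyde in the embryo, was not called at either day (-0.22 and 0.09). Of the other two breakdown enzymes only *Cyp26b1* was tested, and it was not called between the genotypes (0.48 at day 0 and 0.05 at day 3), at under 1 CPM on average in each group.

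**Figure D4:**
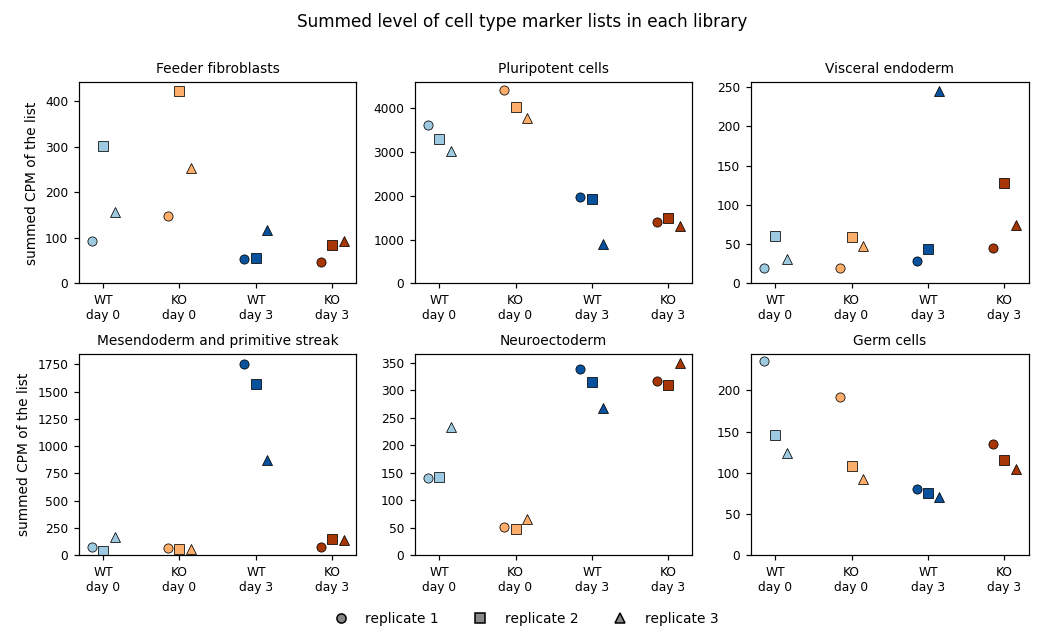
Summed CPM (vertical axis, linear, from 0) of 6 lists of cell type markers in each library (points), by group (horizontal axis). Mesendoderm sums are 869.6 to 1757 CPM in WT day 3 libraries and at most 164.6 CPM in all others, and replicate 3 of WT day 3 has the highest visceral endoderm sum, 244.8 CPM.

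Undifferentiated libraries carried pluripotency markers, with sums of 3015 to 4417 CPM over 6 genes against 902.7 to 1974 CPM at day 3. Of the same 6, 1 was higher in KO at day 0, and 3 were higher and 1 lower at day 3. For this list and those below, the shares of all tested genes were 9.56% higher and 10.9% lower at day 0, and 14.3% and 16.7% at day 3. Neuroectoderm markers summed to 140.1 to 233.5 CPM in WT and 47.35 to 65.32 CPM in KO at day 0, and to 268.2 to 339.3 and 310.1 to 350.4 CPM at day 3. Of these 6 markers KO was lower in 3 at day 0, and higher in 2 and lower in 2 at day 3. At day 3 *Otx2*, *Sox1* and *Pax6* stood higher in every KO library than in every WT library. *Sox1* held 4.41 to 7.7 CPM in KO against 0.57 to 1.54 in WT, and *Pax6* 2.45 to 3.29 against 0.61 to 1.14. *Nes* and *Sox21* (0.2 to 0.37 CPM in KO against 2.71 to 4.95 in WT) stood lower in every KO library, and *Zic1* overlapped. *Otx2* and *Nes* made up most of each sum. Visceral endoderm sums overlapped between the genotypes, at 19.49 to 60.23 CPM in WT and 19.73 to 58.42 CPM in KO at day 0 and 27.8 to 244.8 and 44.59 to 127.6 CPM at day 3. Feeder sums also overlapped at both days. At day 0 the KO sum was nonetheless above WT in each same-numbered pair (147.9, 422 and 252.4 CPM against 93.1, 301 and 156.5). Of 9 feeder markers tested, 0 were called at day 0, and KO was higher in 4 and lower in 1 at day 3. The part of feeder cells in the day 0 comparison of KO with WT was not tested. Per kb of exon, *Cyp26a1* in WT went from 1.45 CPM at day 0 to 44.2 CPM at day 3, above *Rarg*, which went from 36.9 to 14.7 CPM.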

How the data were processed

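RNA-Seq of 12 libraries, 3 in each of 4 groups given by the labels, was analysed. Per the labels and methods the authors selected polyadenylated RNA and used Cutadapt 1.3 for trimming, STAR 2.4.2a for alignment to GRCm38 and HTSeq 0.6.1 with Ensembl 82 for counting, and the deposited values are these raw counts. Reads with more than a single alignment were not counted. The labels and the methods name different RNA kits and sequencer models.

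Gene names came from GENCODE M21 (46005 of 46517 IDs matched). Genes above 1 CPM in at least 1 library were tested with edgeR 4.0.16 in R 4.3.3 (quasi-likelihood test, TMM), with groups and the replicate number as a block, since the study's methods include a batch factor. Calls were made at a Benjamini-Hochberg adjusted p-value below 0.05 over 15673 genes. The block was checked. Deviations from the group mean were correlated between same-numbered KO and WT libraries of a day in all 6 pairs (0.341 to 0.732 over 10901 genes). Between the days, same-numbered libraries of a genotype were not (-0.247 to 0.084, mean -0.062). The main fit nonetheless shares 1 block over both days, for which the check gave no ground. A block within each day was run as an alternative. No 2 replicates agreed within sampling noise.

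All 9 genes are named. Of the pathway list, called genes are named, at most 4 of a role in a comparison with the smallest adjusted p. Results of 2 genes of the list are not reported here. The members, pathway genes and markers were chosen with earlier results of these data known. Alternatives were no block, limma-voom (limma 3.58.1), DESeq2 1.42.0, RLE normalization, other filters, only the groups compared, a fold minimum, a block within each day and leaving out libraries. Scripts were tested on simulated data. Python 3.11.15, pandas 2.3.3, numpy 2.4.6 and matplotlib 3.10.9 were used.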

Additional observations from a re-analysis of the deposited data

Results flagged for a closer look

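For 3 of the 9 genes the KO effect differed between day 3 and day 0 by a test of the difference itself (the interaction in edgeR, with adjusted p-values over all tested genes). The difference on the log2 scale was 1.75 for *Crabp2* (adjusted p = 0.00228), 2.07 for *Stra8* (adjusted p = 0.0216) and 0.60 for *Rarg* (adjusted p = 0.0149). In all 3 the KO libraries were above WT in each same-numbered pair at day 3. The *Stra8* value rests on levels of 2 to 28 reads at day 3. Groups of 3 libraries were not tested for a single outlying library.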

How the results depend on the processing

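Of 785 refits of a value of the 9 genes, 716 kept direction and side of the threshold, 39 lost a call, 29 gained one and 1 reversed. The reversal was *Rarb* between the days in WT, 0.50 (not called) and -1.16 (adjusted p = 0.0361) without replicate 3, with 1.23 without replicate 1. Requiring 10 or more counts in each library left *Aldh1a2*, *Cyp26a1*, *Rarb*, *Stra6* and *Stra8* untested, and the counts of called genes became 1 of 3 for KO against WT at day 0, 3 of 5 at day 3, 2 of 4 between the days in WT and 3 of 7 in KO. With only the groups compared, 5 were called at day 0. Without the replicate block, 1 of 3 differences between days was called; the block changed the call of *Rarg* and *Crabp1* at day 0 and of *Stra8* and *Aldh1a2* at day 3, and no other call of KO against WT. A block within each day ended no call of the 9 genes and gained 4, *Crabp1* at day 0 (adjusted p = 0.00919) and between the days in KO (0.0303) and *Aldh1a2* at day 3 (0.0201) and in the difference between days (0.0152). With libraries or replicate numbers left out, the counts ranged from 1 to 2 (day 0), 4 to 6 (day 3), 3 to 7 (WT), 6 to 7 (KO) and 1 to 4 (differences between days). Leaving out a number leaves 2 libraries a group. Over all tested genes, calls went from 3201 to 5447 at day 0, from 4846 to 7347 at day 3 and from 2436 to 4889 for the differences with a block within each day, and from 3201 to 5356 with only the groups compared at day 0. With libraries left out they fell as low as 937, 2104 and 508, and to 5712 of 8812 between the days in WT. No scaling moved the median of all genes by over 0.1. Of 368 refits of the pathway genes named, 53 lost the call and 0 reversed. The cause of these changes was not tested. Genes near 1 CPM rest on about 20 reads a library, which limits *Stra6*, *Rarb*, *Stra8* at day 3, *Aldh1a2* in KO at day 3 and *Cyp26a1* in KO. It also limits pathway genes such as *Cdx1* at day 3 and *Hoxb1* in KO.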

Other observations

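The protein-coding genes whose levels most resembled each of the 9 over the 12 libraries are given as a description, by Pearson's r of log2(CPM + 1); libraries share genotype, day and depth, so these r values reflect the 4 groups as much as the genes. For *Cyp26a1* they were *Edn3* (0.985), *Prdm9* (0.983) and *Lhx1* (0.981), the last a transcription factor of the mesendoderm list. For *Aldh1a2* they were *Fndc3b* (0.987), *Hcfc2* (0.983) and *Tgm2* (0.972), the last a transglutaminase of the response list. *Crabp2* was most like *Mtcl1* (0.962) and *Nrxn2* (0.953), *Crabp1* like *Thsd1* (0.966), and *Stra8* like *Nupr1* (0.980) and *Hspa9* (0.979). *Rarg* was most like *2310061I04Rik* (0.986) and *Llgl2* (0.984), *Dhrs3* like *Tpgs2* (0.955) and *Stra6* like *Ccr7* (0.952). *Rarb*, low in all but a single library, had no gene above *Gimap8* (0.853).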
